A study of Mus musculus with 14 samples.

Results

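The miR-29 family was examined in small RNA sequencing of exosomes, the small vesicles that carry RNA between cells, shed by macrophages of adipose tissue (ATMs, sorted as CD11b+F4/80+). The members are the rows named mmu-mir-29a, mmu-mir-29b-1, mmu-mir-29b-2 and mmu-mir-29c (mmu stands for mouse and is left out from here on), 4 of the 539 microRNA (miRNA) hairpins in the authors' deposited table, and all 4 had a row. Exosomes came from cultured ATMs of C57BL/6 mice, with 7 libraries labelled obese and 7 labelled lean. The labels leave out how obesity was produced, the sex of the mice and whether mice were pooled. Ages in the labels are ranges that begin at 24 weeks in every sample and end between 26 and 32 weeks in the obese group and between 33 and 39 weeks in the lean group. The upper ends step by exactly 1 week per sample in order of listing, straight through both groups, so what they mean is uncertain. If those labels hold, age cannot be told apart from obesity. The labels do not say whether libraries came from separate mice, so p-values reflect only how these libraries vary, which may be technical.

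The miR-29 miRNAs bind and repress messenger RNAs of the extracellular matrix, among them several collagens, elastin and fibrillin, and are known for restraining fibrosis. They also repress DNA methyltransferases and the survival protein Mcl1, and a raised miR-29 level in fat, liver and muscle is associated with reduced insulin action. The hairpins are cut from a pair of primary transcripts, 1 holding mir-29b-1 with mir-29a and 1 holding mir-29b-2 with mir-29c, and each hairpin can yield a mature strand from its 5p and its 3p arm. The 3p strand is the one known to be loaded into Argonaute, and its target choice is set mainly by the seed, bases 2 to 8.

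The mature 3p strands are shown because they define the family and show what the hairpins share. They are taken from RefSeq on GRCm38.p6, written 5′ to 3′ with the seed in capitals, and all 4 members were found there.
miR-29a-3p: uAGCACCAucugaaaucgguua
miR-29b-3p, from both mir-29b-1 and mir-29b-2: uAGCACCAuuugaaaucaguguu
miR-29c-3p: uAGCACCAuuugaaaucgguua
All 3 carry the seed AGCACCA. Among 1738 mature miRNA entries of that RefSeq set, which covers 480 of the 539 hairpins in the table, 4 entries have this seed and all 4 belong to the members. Counted from the 5′ end of miR-29a-3p, miR-29c-3p differs by C10U alone over 22 bases, and miR-29b-3p differs by C10U, G18A, U21G and A22U and is 1 base longer. Of the members' mature strands, only miR-29b-3p ends in AGUGUU, the hexamer that was described in human cells as a nuclear import element of miR-29b.

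The 5p strands are shown because they are where the mir-29b copies part, with bases 2 to 8 again in capitals.
miR-29a-5p: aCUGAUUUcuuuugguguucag
miR-29b-1-5p: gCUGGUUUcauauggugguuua
miR-29b-2-5p: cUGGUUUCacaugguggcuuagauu
miR-29c-5p: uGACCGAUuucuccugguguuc
The longest run shared by the hairpins mir-29b-1 and mir-29b-2 is 25 bases, and it holds the whole of miR-29b-3p. A read inside that run matches both hairpins equally, whereas a 5p read separates them. The hairpin mir-29b-1 shares at most 22 bases with mir-29c and 11 with mir-29a. The table has a row per hairpin, so the arms cannot be told apart in it, and no label or header says how reads that match several hairpins were assigned.

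GENCODE M21 on GRCm38 places mir-29a (ENSMUSG00000065610.1) at chr6:31062660-31062747 and mir-29b-1 (ENSMUSG00000065604.2) at chr6:31063023-31063093, both on the minus strand with 275 bases between them. The annotated lincRNA Gm27019 overlaps mir-29b-1 by 2 bases on the same strand, and no exon other than its own overlaps mir-29a. The second cluster lies on the plus strand, with mir-29b-2 (ENSMUSG00000065412.3) at chr1:195037040-195037120 and mir-29c (ENSMUSG00000065548.1) at chr1:195037547-195037634, separated by 426 bases. Both lie in an exon of the noncoding RNA A330023F24Rik. On the opposite strand both fall wholly within an untranslated part of an exon of Cd46, which encodes a complement regulator. No label or header says whether strand was used in counting, so reads of mir-29b-2 and mir-29c cannot be told apart from reads of that exon.

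The comparison asks which miRNAs differ between exosomes of obese and lean ATMs. No column or header names the numerator of the fold changes, so each difference has a sign but no stated direction. A publication on this material, not part of these data, described miR-155 as enriched in the obese group, and mir-155 is positive here (log2 fold change 4.41 in the authors' deposited table), so positive is read as the obese side on that report alone. The table gives no value for any single library and no group mean. Levels are therefore means of log2 expression over both groups, without an error, and whether neighbouring levels differ beyond their spread was not tested.

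The members spanned a wide range of levels. In the authors' deposited table mir-29a stood highest, with a mean log2 expression of 10.44, which is position 53 of 539. The hairpins mir-29b-1 and mir-29c followed at 6.41 and 5.95 in the authors' deposited table, positions 150 and 161. The lowest was mir-29b-2 at 3.64 in the authors' deposited table, position 225. All 4 thus lay above 2.34, the median level of all hairpins. The scale is that of the deposited values, which are per hairpin, and these hairpins are 71 to 88 bases long.

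Of the 4 hairpins 1 passed an adjusted p of 0.05, on the negative side, where 5.57% of all hairpins passed in either direction, 3.53% on the negative and 2.04% on the positive side. That member was mir-29b-1. In the authors' deposited table (limma) its log2 fold change was −3.66, a 12.6-fold difference (adjusted p = 0.0310). Dividing that fold change by t gives a standard error of 0.97, and the 95% interval runs from −5.70 to −1.61. Its place by p was 25 of 539, among 30 called hairpins. For mir-29b-1 the authors' deposited table puts the natural log odds of a difference at −0.96, and 14 of the 30 called hairpins likewise had a value under 0. Tested against a 1.5-fold minimum, mir-29b-1 no longer passed (adjusted p = 0.0643).

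The hairpin mir-29a, the most abundant of the family, lay on the other side. Its log2 fold change was 2.0, a 4.01-fold difference, in the authors' deposited table (limma, adjusted p = 0.0614), so it did not pass. The standard error was 0.61 and the 95% interval, without adjustment for the number of hairpins, ran from 0.72 to 3.29. At that error the smallest absolute t among called hairpins, 3.53, corresponds to a log2 fold change of 2.16. When hairpins with a mean log2 expression under 3.32 were left out, the adjusted p was 0.0348. At an unadjusted p under 0.05 both mir-29a and mir-29b-1 passed, against 17.6% of all hairpins, and at an adjusted p under 0.1 both passed, against 8.35%.

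The hairpins of the chromosome 1 cluster did not pass. For mir-29c the authors' deposited table (limma) gives a log2 fold change of 0.64 with an adjusted p of 0.780. Its interval ran from −1.32 to 2.60. The authors' deposited table has mir-29b-2 at −0.54 with an adjusted p of 0.896, and its interval ran from −2.88 to 1.80. At their errors of 0.93 and 1.11, the smallest absolute t among called hairpins, 3.53, corresponds to log2 fold changes of 3.29 and 3.94. Differences of several fold either way could thus have gone uncalled here.

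**Figure D1:**
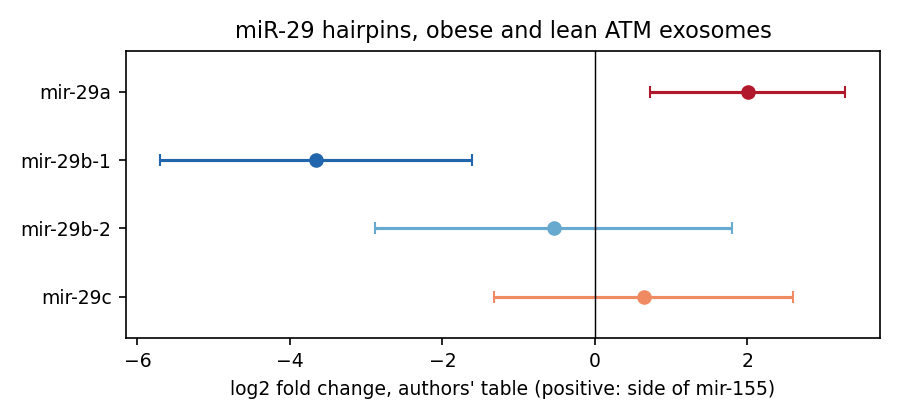
Log2 fold change of the miR-29 hairpins between obese and lean ATM exosomes in the authors' deposited table (points), with 95% intervals from the recovered standard errors (bars); positive is the side of mir-155. The interval of mir-29b-1 (−5.70 to −1.61) lies below 0, that of mir-29a (0.72 to 3.29) above 0, and those of mir-29b-2 and mir-29c span 0.

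**Figure D2:**
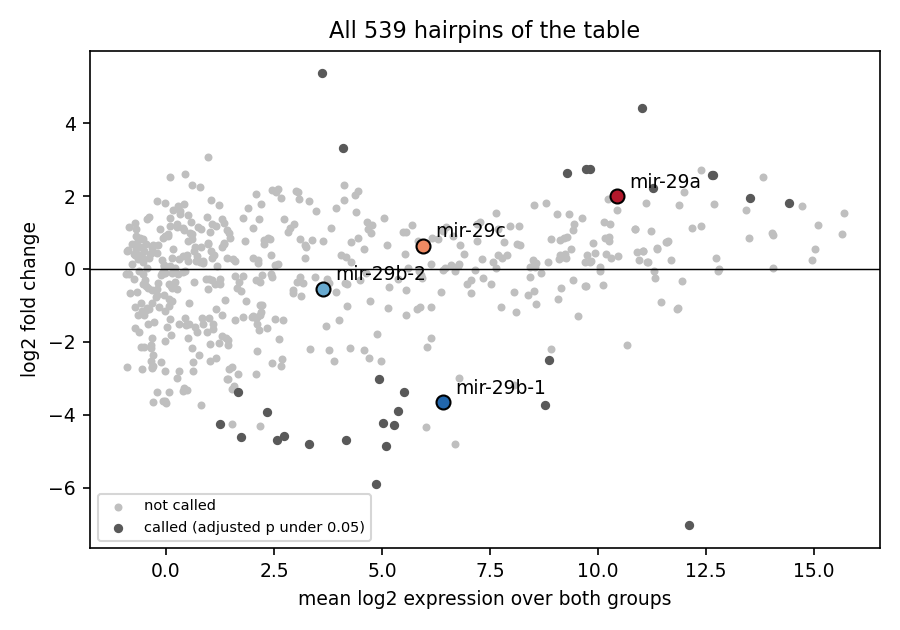
Log2 fold change against mean log2 expression over both groups for all 539 hairpins of the authors' deposited table, with called hairpins in dark grey and the miR-29 members in colour. The member mir-29b-1 sits at a level of 6.41 among the negative calls, while mir-29a, at 10.44, lies near the positive calls without being one.

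The members did not share a sign. Of the 4 hairpins 2 were positive and 2 negative, and their median log2 fold change was 0.05, beside 284 positive of 539 and a median of 0.09 over all hairpins. The plot of fold change against level shows how far apart the members lie. The 6 differences between members were formed with the largest standard error that any covariance between their rows allows, since that covariance is not in the table. The difference of mir-29a minus mir-29b-1 was 5.66 on the log2 scale, with a 95% interval from 2.33 to 8.99. Widened for all 6 comparisons the interval ran from 0.97 to 10.35, and no other of the 6 widened intervals lay clear of 0. The difference of mir-29b-1 minus mir-29c was −4.30 (95% interval −8.30 to −0.30), which included 0 once widened (−9.94 to 1.35).

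The remaining 4 differences had intervals that included 0. The mir-29b copies, mir-29b-1 minus mir-29b-2, differed by −3.12 (95% interval −7.50 to 1.27). If their rows were independent the interval, not widened for the 6 comparisons, would run from −6.23 to −0.01. Whether the unwidened interval holds 0 thus turns on a covariance that is not given. The difference of mir-29a minus mir-29c, the members whose 3p strands differ by C10U, was 1.36 (−1.88 to 4.61). That of mir-29a minus mir-29b-2 was 2.54 (−1.09 to 6.17), and that of mir-29b-2 minus mir-29c was −1.18 (−5.48 to 3.12). These widths leave room for several-fold differences in either direction.

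**Figure D3:**
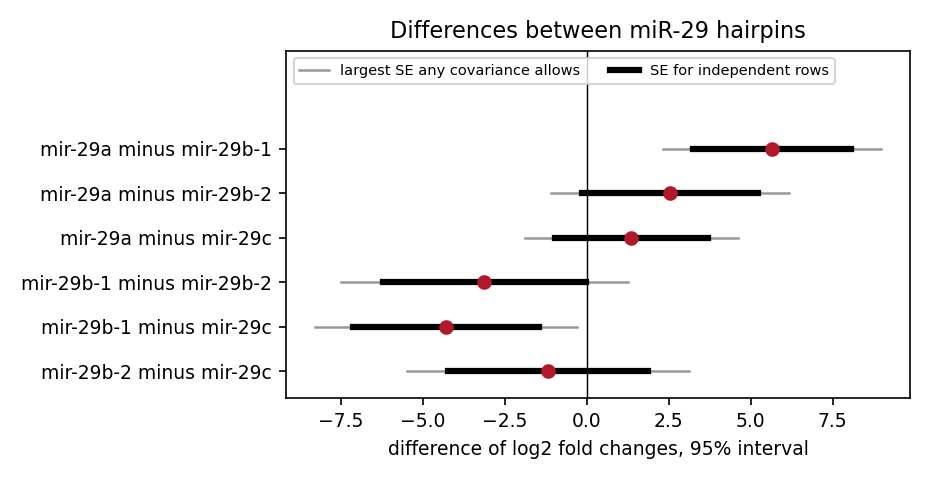
Differences of log2 fold change for the 6 pairs of miR-29 hairpins (points), with 95% intervals from the largest standard error any covariance allows (thin) and from that of independent rows (thick). Both intervals of mir-29a minus mir-29b-1 stay above 0 (2.33 to 8.99 for the thin one), and both of mir-29b-1 minus mir-29c stay below 0.

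The cluster that holds mir-29a and mir-29b-1 was compared with other hairpins that lie close together, which are often cut from 1 primary transcript. GENCODE M21 placed 515 of the 539 hairpins, and 132 pairs among 126 hairpins lie within 10 kb on the same strand. Across those pairs the median absolute difference of log2 fold change was 0.70. The pair mir-29a and mir-29b-1, at 5.66, had the largest difference of the 132, and the next was 2.76, for mir-201 and mir-547. In the 55 of these pairs with both hairpins at a mean log2 expression of at least 3.32, the next largest was 2.44 (mir-188 and mir-532). Opposite signs were not unusual, with 48 of 132 pairs (36.4%), and mir-29b-2 with mir-29c was 1 of these, at position 43 with a difference of 1.18. Pairs share hairpins and libraries, so the positions are a description without a test.

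**Figure D4:**
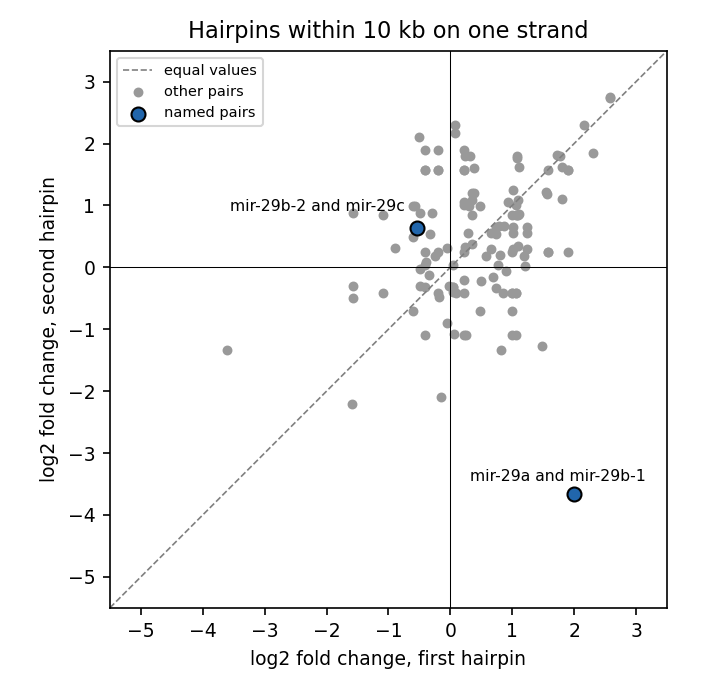
For each of 132 pairs of hairpins, the log2 fold changes of both in the authors' deposited table, for pairs within 10 kb on one strand, with equal values on the dashed line and the miR-29 pairs in blue. The pair mir-29a and mir-29b-1 lies farthest from the line (2.0 and −3.66), and mir-29b-2 with mir-29c lies among the other pairs.

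Copies of 1 miRNA at separate loci offer a second comparison, because copies share mature reads. The table holds 33 such pairs from 29 miRNAs, and their median absolute difference in log2 fold change was 0.19. The mir-29b copies, at 3.12, were second of the 33. The pair above them was mir-365-1 and mir-365-2, at 4.73, for which the authors' deposited table (limma) has 0.98 (adjusted p = 0.591) and −3.75 (adjusted p = 0.0266). In both pairs the more abundant copy was the called one and was negative. Among the 21 pairs with both copies at a mean log2 expression of at least 3.32, where the median difference was 0.06, the mir-29b copies were again second.

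The 5 most abundant copy pairs are let-7c, mir-181a, mir-92a, let-7a and let-7f, and their log2 fold changes differed by 0.06, 0.01, 0.59, 0.0034 and 0.03. Sharing 1 mature strand does not set the mir-29b pair apart. Of 22 pairs with both strands in the RefSeq set, 16 have 1 identical strand, as mir-29b has its 3p, and their differences ran from 0.0021 to 4.73 with a median of 0.05. The mir-29b copies also stood apart in level, by 2.78 on the log2 scale. A look at level gaps, chosen after the values were seen, found 20 pairs with levels within 0.2 of each other, and their largest difference in log2 fold change was 0.67 (mir-450a-1 and mir-450a-2). The 6 pairs with levels more than 2 apart differed in log2 fold change by 0.28 to 4.73, with a median of 0.75. Among the 20 pairs within 0.2 the median was 0.06. Whether a gap in level bears on a gap in fold change was not tested.

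**Figure D5:**
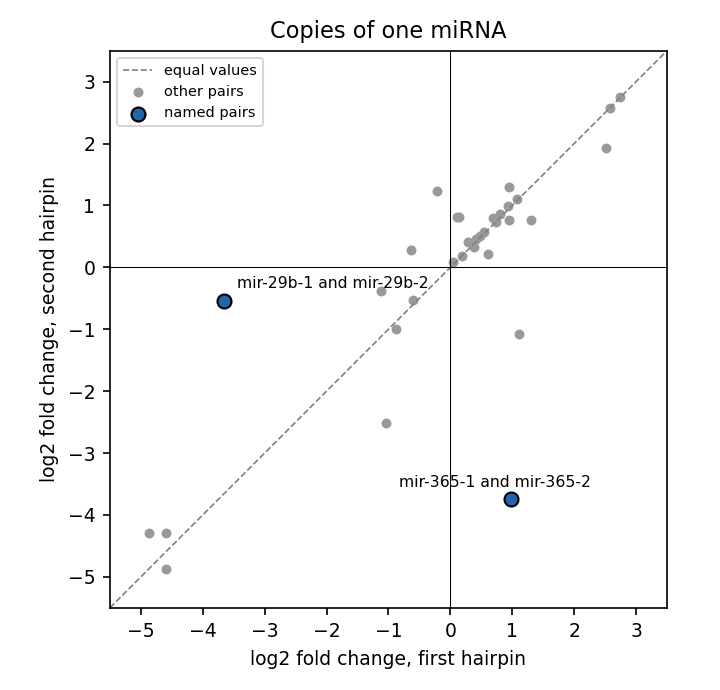
For each of 33 pairs of copies of 1 miRNA, the log2 fold changes of both in the authors' deposited table, with equal values on the dashed line. Most pairs lie on or near the line (median difference 0.19), and the mir-29b copies (3.12) and the mir-365 copies (4.73) lie farthest from it.

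Other miRNAs with a known part in fibrosis gave no further calls. The list of miRNAs that restrain fibrosis besides miR-29, which holds the miR-30, miR-26, miR-101 and miR-200 groups, had 22 hairpins. Of these 19 (86.4%) were positive and 3 negative, beside 52.7% positive over all hairpins, with a median log2 fold change of 0.59 beside 0.09. That background is unlike the list, whose median level was 8.46 beside 2.34 over all hairpins. The 180 hairpins of highest level had a median log2 fold change of 0.34. The 22 also count both copies of mir-30c, mir-26a, mir-133a and mir-19b. In the list 0 of 22 passed an adjusted p of 0.05 in the authors' limma test, while 4 passed at an unadjusted p under 0.05, a share near the 17.6% of all hairpins. By p in the authors' deposited table (limma), the list was led by mir-429, at a log2 fold change of 2.30 (adjusted p = 0.123), mir-30d, at 1.61 (0.123), and mir-200c, at 2.11 (0.261). The list of miRNAs that promote fibrosis had 7 hairpins, 5 positive and 2 negative, with a median log2 fold change of 0.11 beside 0.09 over all. Here 0 of 7 passed in the authors' limma test, adjusted or at an unadjusted p under 0.05. The authors' deposited table (limma) puts mir-199a-2 first by p, at a log2 fold change of 0.81 (adjusted p = 0.567), then mir-214 at −1.33 (0.648) and mir-34a at −0.53 (0.795).

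Markers of macrophages and of other cells in fat were read beside these values. The 7 hairpins of the myeloid list had mean log2 expression from 4.17 to 15.02. In the authors' deposited table mir-142a stood at 9.70 and mir-223 at 7.62. Other lists overlap these levels, with the adipocyte list reaching 14.04, so levels alone do not check the labelled cell type. Of the 7 myeloid hairpins, 5 were positive and 2 negative, with 1 called on each side, beside 5.57% of all hairpins called. In log2 fold change these were mir-155, at 4.41 (adjusted p = 0.00205), and mir-511, at −4.70 (0.0148), in the authors' deposited table (limma). Fibroblast and mesenchymal markers, cells in which miR-29 is known to act, gave 5 positive and 1 negative of 6 hairpins with 0 called (limma, also 0 at an unadjusted p under 0.05), at levels from 0.22 to 6.59. Among them both mir-199a copies, mir-199b and mir-214 were already counted in the list that promotes fibrosis. That list also shares mir-21a with the myeloid list. The erythrocyte marker mir-486a also stands in the list that restrains fibrosis, so these counts are not separate. Of the 7 hairpins on the lymphocyte list all were positive, at levels from 3.24 to 12.66. On it 4 were called, where 2.04% of all hairpins were called positive. The calls fell on both copies of mir-181a and both of mir-181b. Their log2 fold changes differ by 0.01 within each pair, so the calls stand for 2 miRNAs. The hairpins mir-181c, at 2.31 (limma, adjusted p = 0.251), and mir-181d, at 1.86 (0.303), were not called. Apart from mir-150, at a level of 3.24, this list holds only mir-181 hairpins. A lymphocyte part cannot be told apart from a change of the mir-181 family alone in these calls. The log2 fold change of mir-150 was 0.59 (limma, adjusted p = 0.910), with an interval from −2.49 to 3.67, so it was not called either. Adipocyte markers gave 2 positive and 2 negative of 4 with 1 called on the negative side, the copy mir-365-2 named above, with levels from 0.97 to 14.04. The 2 endothelial, 3 erythrocyte and 1 liver hairpins held 0 calls (limma, also 0 at an unadjusted p under 0.05), at levels from 5.91 to 6.46, from 4.15 to 11.81 and of 2.15. Levels are given over both groups because group levels are not in the table. The part of these cells in the miR-29 values was not tested. Fewer cells of a type, less RNA per cell and less RNA released in exosomes cannot be told apart in these exosome samples.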

How the data were processed

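Small RNA of ATM exosomes was sequenced in 14 libraries. Per the submitters' processing notes, tools were limma, edgeR, Novoalign, Trimmomatic 0.30, MultiQC and FastQC, with no role named. Build, miRNA annotation, filters and scaling: not given in the sources used here. In all, the authors deposited 1 table: log2 fold changes and mean log2 expression, a moderated t, which is a score, p-values, unadjusted and adjusted, and B, on a natural log scale, per the file headers. It has 0 columns of values per library, so depth is unknown and no model was refitted.

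Adjusting the deposited p by Benjamini-Hochberg over 539 hairpins gives the deposited adjusted p (largest difference 1.46e-14), and a value under 0.05 is called. A standard error is the log2 fold change over t, and 95% intervals take 17.9 degrees of freedom recovered from t and p (Python 3.11.15, scipy 1.17.1). Between neighbours ranked by absolute t, B went the other way in 239 of 538 cases, which in limma can arise when rows carry unequal weights. The source of this order was not tested, and group means were not computed. Differences between members used the sum of both standard errors. Scripts were tested on simulated data.

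Members and lists were chosen with earlier results of these data known. Named are the members, the 3 hairpins nearest to each in fold change within 1 log2 unit of level, copy pairs at least as different as mir-29b with 5 abundant others, and 3 hairpins of smallest p per fibrosis list. Others were named after their values were seen: mir-201, mir-547, mir-188, mir-532, the mir-450a copies and the further hairpins named from the fibrosis and cell marker lists. Alternatives were recentring, an expression minimum of 10 on the linear scale, other thresholds, 1 row per stem and a 5 kb cluster distance.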

Additional observations from a re-analysis of the deposited data

How the results depend on the processing

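The table gives no values per library. No paired analysis was possible because the columns carry no samples, and leaving out each replicate could not be run either. No member changed sign when fold changes were recentred; the other alternatives leave the fold changes as they are, and 1 row per stem drops mir-29b-2. Recentring by 0.34, the median over the 180 hairpins of highest level, left mir-29b-1 called (−4.00, adjusted p = 0.0154, limma statistics) and mir-29a at 1.66 (adjusted p = 0.133), and turned the split of all calls to 8 positive and 25 negative from 11 and 19. Recentring by 0.09, the median of all hairpins, or keeping 1 row per stem changed no call among the members. With an expression minimum of 3.32 (log2) mir-29a (2.0) passed at an adjusted p of 0.0348 from limma's p, which made 2 called members, and the split of all calls became 16 and 16; fewer hairpins were adjusted over (231 of 539). At an adjusted p under 0.1, which 8.35% of hairpins reach, mir-29a (2.0) also passed by construction (0.0614), again making 2. Against a 1.5-fold minimum, a stricter test by construction, mir-29b-1 (−3.66) was not called (adjusted p = 0.0643), so 0 members were called and 17 hairpins in all. For mir-29b-1 the adjusted p from limma's statistics ran from 0.0154 to 0.0643 over these alternatives, and for mir-29a from 0.0348 to 0.215. For independent rows the standard error is smaller by construction. The difference mir-29b-1 minus mir-29b-2 (−3.12) then had an interval without 0 (−6.23 to −0.01), not widened for the 6 comparisons. Limiting the neighbours to the 93 pairs within 5 kb or, in an alternative chosen after seeing the data, to 55 pairs over the expression minimum only takes smaller subsets that still hold mir-29a with mir-29b-1, so its first place there says nothing about stability. Depth per library is unknown, and the median standard error of 0.76 among the 180 hairpins of highest level against 1.10 among the next 179 is the one measure of precision here.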

Other observations

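The hairpins nearest to each member in log2 fold change, among those within 1 log2 unit of its mean expression, were listed as a description over these 2 values alone. For mir-29b-1, with 44 candidates, they were mir-712 at −3.38, mir-1249 at −2.99 and mir-702 at −4.33 in the authors' deposited table, and of these mir-712 was called (limma, adjusted p = 0.0295). For mir-29a, with 43 candidates, they were mir-148b at 1.96, mir-92a-2 at 1.93 and mir-27a at 1.80 in the authors' deposited table, none of them called (limma, adjusted p = 0.196, 0.240 and 0.0740). For mir-29b-2 they were mir-141 at −0.51, mir-5129 at −0.58 and mir-219a-1 at −0.63 in the authors' deposited table. For mir-29c they were mir-1964 at 0.65, mir-100 at 0.65 and mir-872 at 0.78 in the authors' deposited table, and none of these last 6 was called. No member had another member among its nearest, since members were left out of the search.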
